A study of Mus musculus with 16 samples.

Results

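Serotonin receptor transcripts were followed in the mouse hippocampus after an injection of beta-sitosterol, the main sterol of plant membranes. The 10 genes are Htr1a, Htr1b, Htr2a, Htr2c, Htr3a, Htr4, Htr5a, Htr5b, Htr6 and Htr7, listed by name and found by their Ensembl mouse gene IDs among the 46603 gene IDs of the count table. All 10 passed the low-count filter and are among the 17055 genes tested. Libraries of mRNA were made from total RNA of the hippocampi of wild-type C57BL/6 mice, 16 in all, 1 mouse each and 4 per group. The groups were beta-sitosterol 6 h, vehicle 6 h, beta-sitosterol 1 h and vehicle 1 h, where the time is that from injection to dissection. Beta-sitosterol was given into the peritoneum at 100 mg/kg, and the vehicle mice had the injection without it. The sources used here do not give the makeup of the vehicle or the age and sex of the mice.

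Serotonin reaches the hippocampus in axons of neurons that lie in the raphe nuclei of the brainstem. Every receptor of the family is a G protein-coupled receptor except the Htr3 type, which is a cation channel opened by serotonin. Type 1 receptors and Htr5a couple to inhibitory G proteins that lower cyclic AMP, type 2 receptors to Gq and phospholipase C, and types 4, 6 and 7 to Gs, which raises cyclic AMP.

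None of the 10 receptor transcripts passed the test for a change with beta-sitosterol at 6 h, at 1 h or over both times, or between 6 h and 1 h, by edgeR's quasi-likelihood test with Benjamini-Hochberg adjustment over all genes at 0.05. Transcripts of Htr1a and Htr2a were 1.13-fold higher in beta-sitosterol mice on average over both times, with adjusted p = 0.202 for Htr1a and 0.180 for Htr2a. The receptor whose transcript varied most was Htr2c, at 18.8 to 107 CPM (read counts scaled to library size) among the 16 mice. It was low in every library with little RNA of choroid plexus markers.

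The libraries held 24815581 to 31266644 counted reads. They differed widely in RNA of the choroid plexus, an epithelium of the brain ventricles that secretes cerebrospinal fluid. Ttr, the transthyretin transcript that defines this epithelium, stood under 100 CPM in 4 libraries, at 45.8 to 67.1 CPM, and at 686 to 6136 CPM in the other 12. The 4 low libraries are mice 17 and 19 of the beta-sitosterol 6 h group, mouse 14 of the vehicle 6 h group and mouse 5 of the vehicle 1 h group. The neuronal marker lists of the hippocampus were present in every library. Summed CPM were at least 330 for dentate granule cells and 499 for CA1 pyramidal neurons. The most abundant markers were Prox1 for dentate granule cells, Mpped1 for CA1, Rgs14 for CA2, Nnat for CA3, Gad1 for interneurons, Prkcd for habenula and thalamus, Aldoc for astrocytes, Mbp for oligodendrocytes, Csf1r for microglia, Flt1 for endothelium and Ttr for choroid plexus.

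Because the G protein-coupled receptors are paralogs, the count of one could hold reads of another. The channel subunit Htr3a was compared with them in the same way. The pair most alike in coding sequence is Htr5a and Htr5b, with 67.6% identical bases in the aligned coding sequences, followed by Htr2a and Htr2c with 59.2%. The longest run of bases shared by 2 members is 26 bases, between Htr2a and Htr2c, and the pair of type 5 receptors shares no run above 15. These runs are shown with 24 bases on either side, in capitals within the GRCm38 reference sequence of the coding strand, because they are where reads of the members come closest.
Htr2a, chr14:74645032-74645105, plus strand: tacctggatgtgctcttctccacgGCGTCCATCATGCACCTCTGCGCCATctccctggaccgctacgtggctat
Htr2c, chrX:147169614-147169687, plus strand: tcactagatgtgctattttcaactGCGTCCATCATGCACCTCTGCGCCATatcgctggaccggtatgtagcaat
Htr5a, chr5:27842851-27842913, plus strand: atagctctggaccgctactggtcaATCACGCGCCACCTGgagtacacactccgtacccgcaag
Htr5b, chr1:121527686-121527748, minus strand: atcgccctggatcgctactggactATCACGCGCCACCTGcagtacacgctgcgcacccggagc

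All 4 stretches are coding, and outside the capitals the members differ at several bases. Taken over whole transcripts, no 50-base stretch of 9 of the receptors occurs in the annotated transcripts of another gene. Htr1b is the exception, with 36 of 4672 such stretches (0.771%) found elsewhere. Its exons also overlap those of D430036J16Rik on the opposite strand over 852 bases, and no source used here says whether counting used the strand, so that counts of Htr1b may hold reads of that gene. No exon of the other 9 receptors overlaps an exon on the opposite strand.

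On GRCm38 every receptor gene but Htr1b and Htr3a has a chromosome of its own among the 10. Htr1a (ENSMUSG00000021721) is an intronless gene at chr13:105443639-105448122 on the plus strand, and Htr1b (ENSMUSG00000049511) lies at chr9:81628291-81633828 on the minus strand. Htr5a (ENSMUSG00000039106) spans chr5:27842149-27855088 and Htr5b (ENSMUSG00000050534) spans chr1:121509842-121528465, each with 2 exons. Htr2a (ENSMUSG00000034997) lies at chr14:74640840-74709494 and Htr2c (ENSMUSG00000041380) at chrX:146962513-147197277. Htr6 (ENSMUSG00000028747) is at chr4:139061108-139075570, Htr7 (ENSMUSG00000024798) at chr19:35958734-36057507 and Htr3a (ENSMUSG00000032269) at chr9:48899213-48911099. The table gives a single count per gene, so coding and untranslated exons are not separated.

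Levels of different genes were compared as CPM per kilobase (kb) of exon, over the union of each gene's exons. Htr1a, the inhibitory receptor carried by pyramidal and granule neurons, stood highest at 7.84 ± 0.985 CPM per kb (SD, n = 16 mice). Htr2c followed at 6.08 ± 2.66 CPM per kb, and Htr3a, the channel subunit made by a class of hippocampal interneurons, at 5.71 ± 0.459. Htr4, which couples to Gs, reached 3.62 ± 0.337 CPM per kb. Below it came Htr7 at 2.98 ± 0.395, Htr5b at 2.97 ± 0.565, Htr5a at 2.39 ± 0.237 and Htr6 at 2.03 ± 0.342 CPM per kb. Htr1b, a receptor that sits on axon terminals, had 1.61 ± 0.202 CPM per kb, and Htr2a, the Gq-coupled receptor known from cortical pyramidal cells, was lowest at 1.34 ± 0.172.

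**Figure D1:**
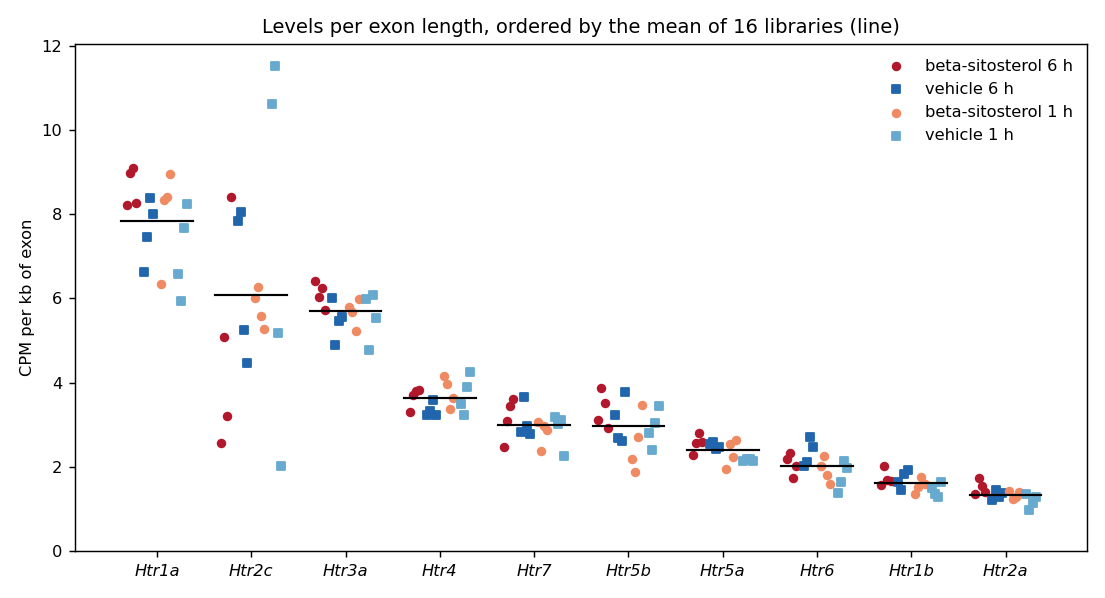
CPM per kb of exon (vertical axis) of the 10 receptors in 16 mice, 1 point a mouse, with beta-sitosterol mice as circles, vehicle mice as squares and a line at the mean of all 16. Htr3a lies wholly above Htr4, while the points of every other pair of neighbours overlap, and Htr2c spreads from 2.01 to 11.5.

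The only neighbours in this order whose ranges did not overlap were Htr3a and Htr4, with Htr3a the higher in 16 of 16 libraries. Htr1a was above Htr2c in 11 of 16 libraries, Htr2c above Htr3a in 8 and Htr7 above Htr5b in 9, so the places within those pairs do not differ beyond the spread between mice. For Htr4 over Htr7, Htr5b over Htr5a, Htr6 over Htr1b and Htr1b over Htr2a the order held in 15 of 16 libraries, and for Htr5a over Htr6 in 14. The place of Htr2c depends on the length used. Divided by its longest coding transcript of 4883 bases, in place of 9328 bases for all its exons, Htr2c had 11.6 CPM per kb and ranked first.

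The other 4 serotonin receptor genes examined had far fewer reads. Htr1d averaged 0.190 to 0.295 CPM and Htr1f 1.36 to 1.66 CPM over the groups, while Htr2b had 43 reads and Htr3b 6 reads in the 16 libraries together and were not tested. Of the genes that make and handle serotonin, Slc6a4, the serotonin transporter of raphe neurons, had 45 reads in all and at most 7 in a library. Tph2, the neuronal tryptophan hydroxylase, averaged 1.33 to 1.48 CPM over the groups. Transcripts of the degrading enzymes Maoa, at 33.3 to 36.6 CPM, and Maob, at 27.8 to 33.1 CPM, were abundant.

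The first question was whether beta-sitosterol moves the receptor transcripts away from vehicle at either time. At 6 h, 0 of the 10 receptors were called, and edgeR called 0% of the 17055 genes. At 1 h the count was again 0 of 10, with 0% of all genes called. With the effect averaged over both times, 0 of 10 were called, against 0.0762% of all genes. At an unadjusted p under 0.05 the receptors numbered 0 at 6 h, 0 at 1 h and 2 over both times, while 12.1%, 10.2% and 20.5% of all genes passed that limit. DESeq2 called none of them either, though it gave no adjusted p to all 10 at 6 h and at 1 h and to 4 over both times. Fold changes were positive for 8 of 10 receptors at 6 h and 7 of 10 at 1 h, with 46.1% and 48.7% of all genes positive, and for 7 of 10 over both times, with 46.1% of all genes positive. The median log2 fold change of the receptors was 0.085 at 6 h and 0.065 at 1 h, and that of all genes was -0.014 and -0.0039.

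**Figure D2:**
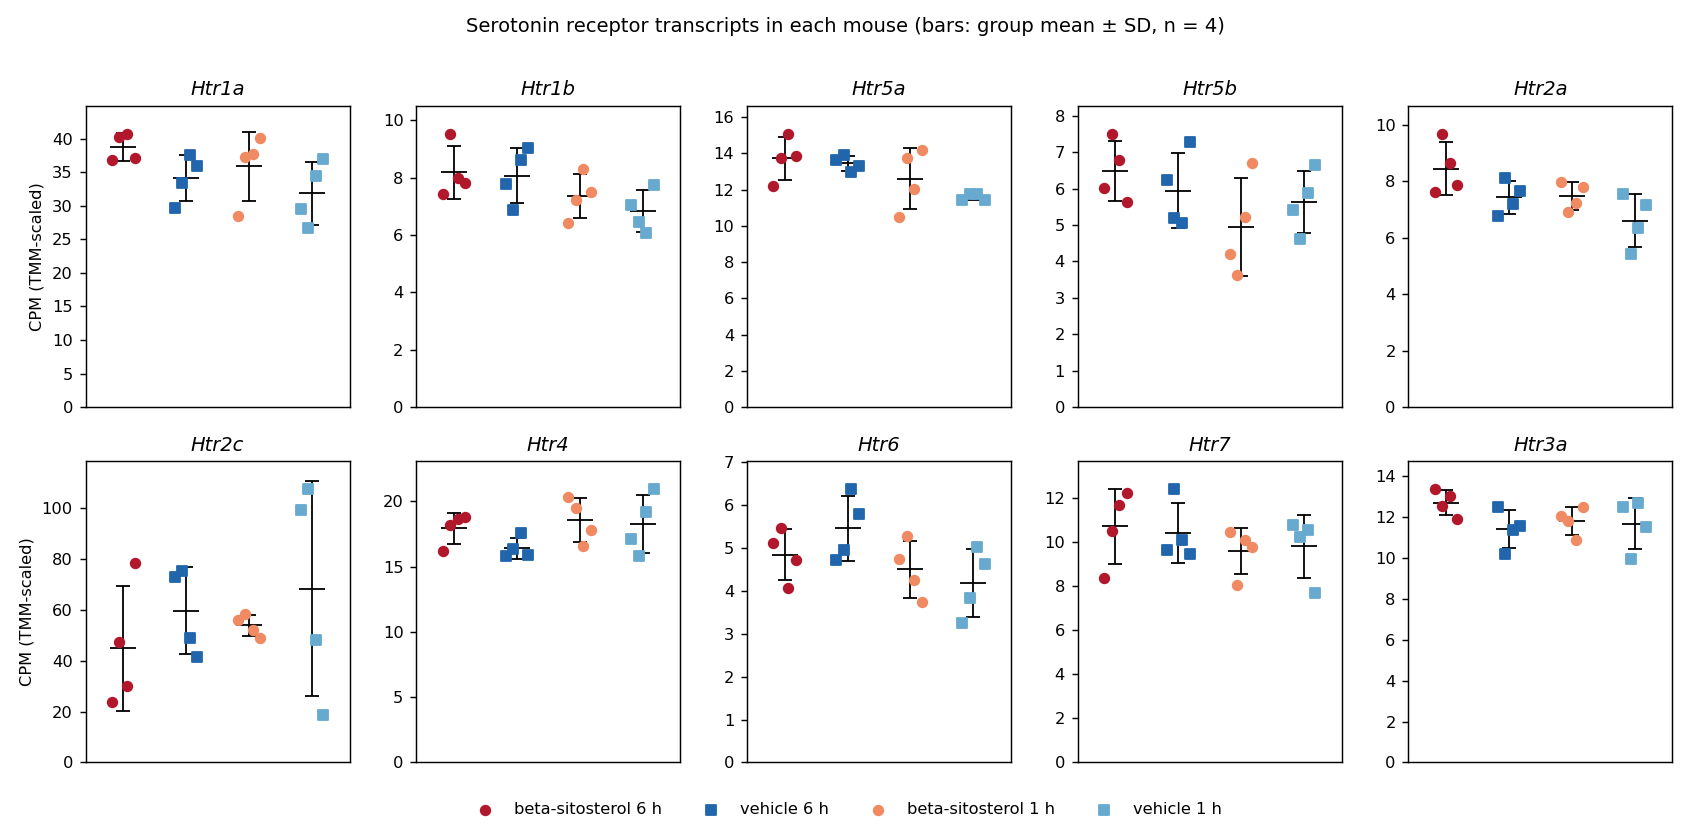
CPM (vertical axes, starting at 0) of each receptor in each mouse for beta-sitosterol 6 h, vehicle 6 h, beta-sitosterol 1 h and vehicle 1 h from left to right, with bars at the group mean ± SD (n = 4). The groups overlap at both times for every receptor, and Htr2c has the widest spread within groups.

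Among the receptors that lower cyclic AMP, Htr1a had 36.9, 40.3, 40.8 and 37.1 CPM in the beta-sitosterol 6 h mice, against 29.7, 33.4, 37.6 and 35.9 CPM in the vehicle 6 h mice. At 1 h it had 28.4, 37.3, 37.7 and 40.1 CPM with beta-sitosterol, against 29.5, 26.7, 34.4 and 37.0 CPM with vehicle. The beta-sitosterol mice were high as a group at 6 h, but mouse 13 of the vehicle group exceeded the lowest 2 of them, and at 1 h the ranges overlapped along most of their length. The log2 fold change was 0.18 at 6 h (SE 0.108, adjusted p = 0.504, edgeR) and 0.17 at 1 h (SE 0.108, adjusted p = 0.595). Over both times it was 0.18 (SE 0.0764, unadjusted p = 0.0335, adjusted p = 0.202), from means of 37.3 CPM in 8 beta-sitosterol mice and 33.0 CPM in 8 vehicle mice.

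Over both times 0 markers of any of the 11 cell type lists were called by edgeR, against 0.0762% of all genes. All 6 dentate granule cell markers had positive estimates, with a median log2 fold change of 0.20, and 2 had an unadjusted p under 0.05, against 20.5% of all genes under that limit and 46.1% positive. Of the 11 interneuron markers 10 were positive and 4 had an unadjusted p under 0.05, with a median of 0.083. Estimates were negative for 8 of 8 astrocyte markers (median -0.14, 8 under that limit), 8 of 8 microglia markers (median -0.16, 6 under it), 8 of 8 oligodendrocyte markers (median -0.14, 1 under it) and 6 of 6 endothelium markers (median -0.11, 2 under it). They were also negative for 7 of 10 habenula and thalamus markers (median -0.23, 2 under it) and 16 of 16 choroid plexus markers (median -0.62, 0 under it). Positive estimates numbered 4 of 5 for CA1 (median 0.035), 3 of 5 for CA2 (median 0.12) and 4 of 5 for CA3 (median 0.0099). The summed CPM of the dentate markers ran from 523 to 627 in beta-sitosterol 6 h mice and 411 to 532 in vehicle 6 h mice, and from 435 to 565 in beta-sitosterol 1 h mice and 330 to 576 in vehicle 1 h mice. With the dentate marker score as a covariate, added after seeing the data, the log2 fold change of Htr1a over both times was 0.090 (SE 0.0720). This was the lowest value among the main fit and its alternatives, which ran up to 0.23. The part of the cell type markers in the estimate for Htr1a was not tested. In bulk tissue, fewer cells of a type and less RNA per cell cannot be told apart.

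The axon-terminal receptor Htr1b averaged 8.19 ± 0.920 CPM in beta-sitosterol 6 h mice and 8.07 ± 0.956 CPM in vehicle 6 h mice (SD, n = 4 each). At 1 h it averaged 7.36 ± 0.783 CPM with beta-sitosterol and 6.82 ± 0.735 CPM with vehicle. The log2 fold changes were 0.022 (SE 0.110) and 0.11 (SE 0.112). Htr5a averaged 13.7 ± 1.18 CPM in beta-sitosterol 6 h mice, 13.5 ± 0.411 in vehicle 6 h mice, 12.6 ± 1.69 in beta-sitosterol 1 h mice and 11.6 ± 0.187 in vehicle 1 h mice. Its close paralog Htr5b, which has lost its coding function in humans, gave estimates of opposite sign at the 2 times, a log2 fold change of 0.13 at 6 h (SE 0.168) and -0.19 at 1 h (SE 0.171). The difference of these 2 effects, 0.32 (SE 0.239), did not pass the test (adjusted p = 1.00, edgeR).

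Of the Gq-coupled receptors, Htr2a had 7.63, 9.68, 8.64 and 7.85 CPM in the beta-sitosterol 6 h mice, against 6.75, 8.13, 7.18 and 7.65 CPM in the vehicle 6 h mice. The values at 1 h were 7.99, 6.89, 7.25 and 7.81 CPM with beta-sitosterol, against 7.53, 5.42, 6.33 and 7.16 CPM with vehicle. At each time the 2 groups overlapped, with the lowest value in a vehicle mouse and the highest in a beta-sitosterol mouse. The log2 fold change was 0.19 at 6 h (SE 0.106) and 0.18 at 1 h (SE 0.107). Over both times it was 0.18 (SE 0.0755, unadjusted p = 0.0264, adjusted p = 0.180, edgeR), with means of 7.97 CPM in 8 beta-sitosterol mice and 7.02 CPM in 8 vehicle mice.

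Htr2c, the receptor known for its high level in choroid plexus epithelium as well as in neurons, had 23.8, 47.4, 29.9 and 78.4 CPM in the beta-sitosterol 6 h mice. The vehicle 6 h mice had 73.1, 75.2, 48.9 and 41.6 CPM. In the beta-sitosterol 1 h mice the values lay together at 56.1, 58.4, 52.0 and 49.1 CPM, whereas those of the vehicle 1 h mice, at 99.1, 107, 48.2 and 18.8 CPM, included both the highest and the lowest of all 16. The coefficient of variation within groups was 43.8%, of which counting error alone would give 2.52%. It exceeded that of 99.8% of the 2457 genes of similar level. The other 9 receptors had coefficients between 7.73% for Htr3a and 18.9% for Htr5b.

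**Figure D3:**
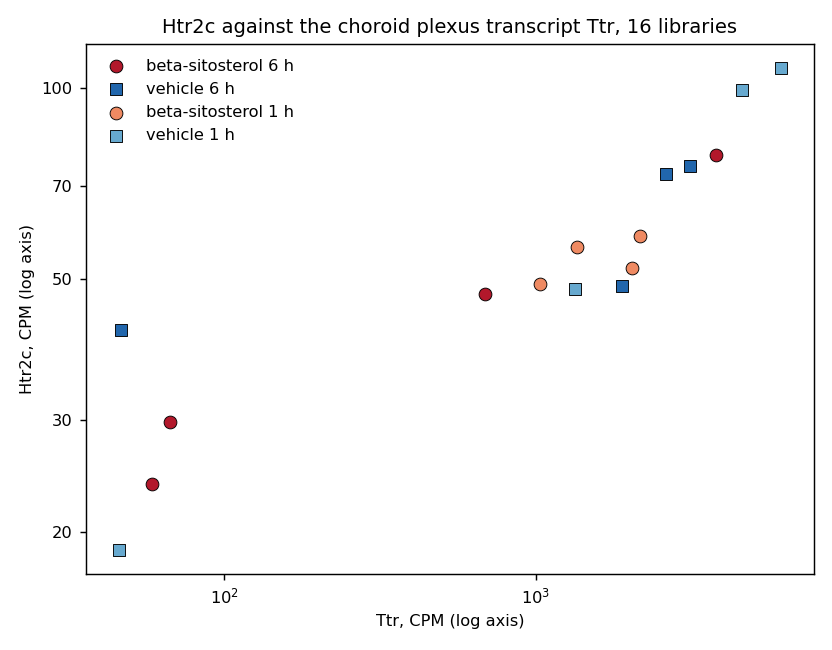
Htr2c (vertical axis) against Ttr (horizontal axis) in CPM on log axes, 1 point for each of 16 libraries. The 4 libraries with Ttr under 100 CPM hold the 4 lowest values of Htr2c, 18.8 to 41.6 CPM, and the other 12 hold 47.4 to 107 CPM.

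The libraries fell into 2 clusters by Ttr, so the relation of Htr2c to choroid plexus markers was measured only within the 12 libraries of the higher cluster. Over these, the log-CPM of Htr2c and a score, the mean log-CPM over 16 markers of choroid plexus, both centred on the group means, had a Pearson r of 0.890 (permutation p = 0.00717, adjusted p = 0.0717 over the 10 receptors). Spearman's rho was 0.874 (permutation p = 0.00373, adjusted p = 0.0373). Without the 2 libraries farthest from the median of the marker score, vehicle 1 h mouse 4 and beta-sitosterol 6 h mouse 18, r was 0.791. For the other 9 receptors r lay between -0.608 for Htr5b and 0.155 for Htr7, and none passed either test.

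The genes whose log-CPM was most like that of Htr2c over all 16 libraries were Mest with r = 0.967, Rsph1 with r = 0.966 and Cfap61 with r = 0.963. In the tests of treatment, Htr2c had a log2 fold change of -0.41 at 6 h (SE 0.483), -0.34 at 1 h (SE 0.479) and -0.38 over both times (SE 0.340, adjusted p = 0.559, edgeR). All 16 choroid plexus markers had negative fold changes in each of these comparisons and 0 were called. Of all genes, 46.1% were positive at 6 h, 48.7% at 1 h and 46.1% over both times, and 0%, 0% and 0.0762% were called. All 16 are markers of the same epithelium, so their signs are not separate observations. The summed CPM of the 16 markers ranged from 373 to 6836 in beta-sitosterol 6 h mice, 350 to 5586 in vehicle 6 h mice, 1894 to 4034 in beta-sitosterol 1 h mice and 337 to 10159 in vehicle 1 h mice. With the choroid plexus marker score as a covariate the estimate for Htr2c over both times was -0.14 and its SE 0.141. With the dentate granule score in its place the sign turned, with estimates of 0.037 at 6 h (SE 0.388), 0.38 at 1 h (SE 0.415) and 0.21 over both times (SE 0.308). Without the 4 libraries low in Ttr, a fit added after seeing the data, the estimate at 1 h was -0.66 (SE 0.294, unadjusted p = 0.0537, edgeR). The vehicle 1 h mice left in it were mice 2, 3 and 4. Mice 2 and 3 had the highest Ttr of all 16, at 4581 and 6136 CPM. In the same fit the effect at 6 h minus that at 1 h was 0.60, so the estimate at 6 h was less negative than at 1 h.

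Among the receptors that raise cyclic AMP, the largest estimate at either time was that of Htr6 at 6 h. Its log2 fold change was -0.17 (SE 0.146, adjusted p = 0.662, edgeR), close in size to those of Htr1a and Htr2a. At 1 h Htr6 had 0.11 (SE 0.149), and Htr4 had 0.13 at 6 h (SE 0.0851) and 0.023 at 1 h (SE 0.0846). Htr4 averaged 17.9 ± 1.19 CPM in beta-sitosterol 6 h mice and 16.4 ± 0.808 CPM in vehicle 6 h mice, and 18.5 ± 1.69 CPM in beta-sitosterol 1 h mice and 18.3 ± 2.25 CPM in vehicle 1 h mice. For Htr6 the averages were 4.84 ± 0.595 CPM and 5.45 ± 0.762 CPM at 6 h with beta-sitosterol and vehicle, and 4.49 ± 0.657 CPM and 4.18 ± 0.799 CPM at 1 h. Htr7 had a log2 fold change of 0.0045 over both times (SE 0.0917), the smallest of the 10, with a 95% interval of -0.19 to 0.20. The channel subunit Htr3a had 13.4, 12.5, 13.0 and 11.9 CPM in beta-sitosterol 6 h mice, against 12.5, 10.2, 11.4 and 11.6 CPM in vehicle 6 h mice. Its log2 fold change at 6 h, 0.16 (SE 0.0831, unadjusted p = 0.0783, adjusted p = 0.461, edgeR), had the smallest p of the receptors at that time, and at 1 h the estimate was 0.016 (SE 0.0833).

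**Figure D4:**
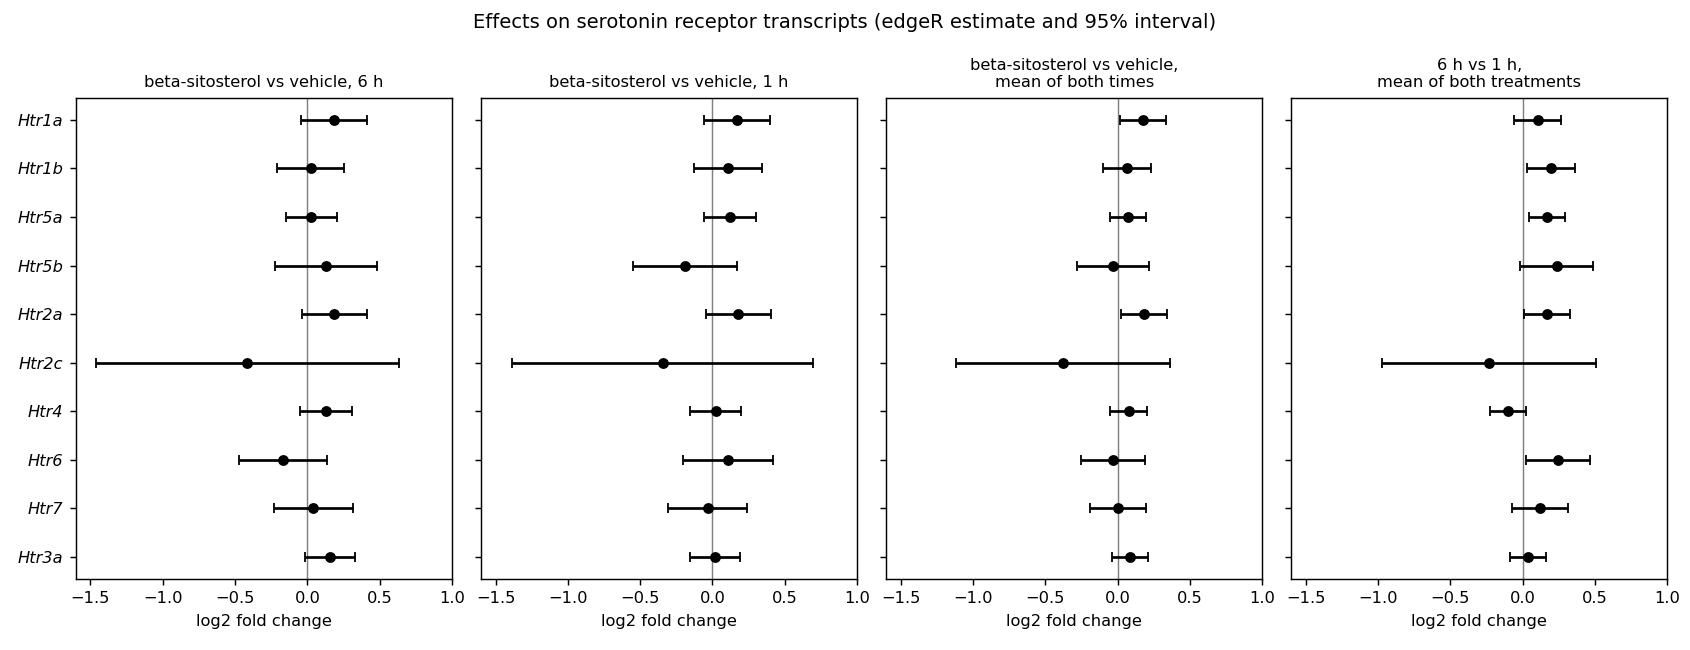
The log2 fold change (horizontal axes) with its 95% interval from edgeR for each receptor, for treatment with beta-sitosterol compared with vehicle (6 h, 1 h, both times) and for 6 h compared with 1 h. The intervals of Htr2c are the widest, and those of Htr1a and Htr2a over both times and of Htr5a, Htr1b, Htr6 and Htr2a between times leave out 0 before adjustment.

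The intervals give the changes that remain compatible with these mice. Over both times, the 95% interval of the log2 fold change was 0.016 to 0.34 for Htr1a, 0.024 to 0.34 for Htr2a, -0.099 to 0.23 for Htr1b, -0.053 to 0.20 for Htr5a and -0.28 to 0.22 for Htr5b. For Htr2c it was -1.12 to 0.36, the widest of the 10. For Htr4 it was -0.050 to 0.20, for Htr6 -0.25 to 0.19 and for Htr3a -0.038 to 0.21.

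The test of whether the effect of beta-sitosterol differs between 6 h and 1 h called 0 of 10 receptors and 0% of all genes, and at an unadjusted p under 0.05 none of the receptors and 1.92% of all genes. Positive estimates numbered 6 of 10, with 46.8% of all genes positive. The estimates ran from -0.28 for Htr6 (SE 0.208) to 0.32 for Htr5b.

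Between 6 h and 1 h, averaged over both treatments, 0 of 10 receptors were called, against 0.68% of all genes. DESeq2 called none. At an unadjusted p under 0.05 there were 4 receptors, all higher at 6 h, against 16.6% of all genes. The receptors' median log2 fold change was 0.15, against -0.0027 for all genes, and 8 of 10 were positive, with 49% of all genes positive. Time after injection is also time of dissection, and the 2 cannot be told apart.

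Htr5a had the smallest p of these. It had 12.2, 13.8, 15.1 and 13.9 CPM in beta-sitosterol 6 h mice and 13.7, 13.9, 13.0 and 13.3 CPM in vehicle 6 h mice. At 1 h it had 10.5, 13.7, 12.0 and 14.2 CPM with beta-sitosterol and 11.4, 11.8, 11.8 and 11.5 CPM with vehicle. All 4 vehicle mice at 6 h were above all 4 at 1 h, while the beta-sitosterol mice of the 2 times overlapped. The share of all genes whose vehicle mice separate in this way was not counted. The log2 fold change was 0.17 (SE 0.0601, unadjusted p = 0.0115, adjusted p = 0.176, edgeR), from means of 13.6 CPM in 8 mice at 6 h and 12.1 CPM in 8 mice at 1 h.

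Htr1b averaged 8.13 CPM in 8 mice at 6 h and 7.09 CPM in 8 mice at 1 h, a log2 fold change of 0.20 (SE 0.0785, adjusted p = 0.219, edgeR). Htr6 averaged 5.15 CPM at 6 h and 4.34 CPM at 1 h, with a log2 fold change of 0.24 (SE 0.104, adjusted p = 0.250). Htr2a had a log2 fold change of 0.17 (SE 0.0755, adjusted p = 0.266) and Htr5b one of 0.24 (SE 0.120, adjusted p = 0.334). The mice of the 2 times overlapped for each of these. Htr4 and Htr2c were the receptors with negative estimates, -0.10 (SE 0.0600) and -0.23 (SE 0.340).

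Of the 8 astrocyte markers 2 were called lower at 6 h than at 1 h, and of the 8 microglia markers 1, against 0.68% of all genes called in either direction. The median log2 fold change was -0.16 for the astrocyte markers and -0.17 for the microglia markers. It was 0.16 for 11 interneuron markers, of which 0 were called and 6 had an unadjusted p under 0.05, and 0.15 for 6 dentate granule cell markers, of which 0 were called and 0 were under that limit. The part of these values in those of the receptors was not tested.

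The signalling partners of the receptors, 29 genes that include G proteins, adenylyl cyclases, protein kinases, phospholipases C, potassium channels, arrestins and RNA editing enzymes, were all tested. Only Plcb3, a phospholipase C that Gq activates, was called, and only over both times, where it was lower with beta-sitosterol and 0.0762% of all genes were called. It ranged from 20.6 to 22.3 CPM in beta-sitosterol 6 h mice and 23.8 to 27.3 CPM in vehicle 6 h mice. At 1 h the ranges were 22.9 to 25.1 CPM with beta-sitosterol and 26.5 to 29.1 CPM with vehicle. Ranges that do not overlap were not particular to Plcb3. At 1 h those of the partners Arrb1 and Adar did not overlap either. At 6 h the same held for Gnaq, Plcb1, Kcnj3, Kcnj6, Prkca, Gnai2 and Ric3. The share of all genes with such ranges was not counted. At 6 h or at 1 h alone Plcb3 was not called, and 0% of all genes were. The log2 fold change over both times was -0.22 (SE 0.0405, adjusted p = 0.0481, edgeR). The call was lost in 11 of the 16 fits that left out a mouse and in 2 others, with adjusted p up to 0.112, and the sign was negative in all 24 alternatives. It held without mouse 17 of the beta-sitosterol 6 h group, mouse 12 of the vehicle 6 h group, mouse 6 or 9 of the beta-sitosterol 1 h group or mouse 5 of the vehicle 1 h group. The 2 other fits were that with the dentate score and that without the 4 libraries low in Ttr.

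Of the 29 partners, 18 had positive estimates over both times, with 46.1% of all genes positive. Their median log2 fold change was 0.043, against -0.013 for all genes. Over both times 14 of the 29 had an unadjusted p under 0.05 by edgeR, against 20.5% of all genes. There were 9 at 1 h, against 10.2% of all genes, and 7 at 6 h, against 12.1%. S100a10, which binds Htr1b and Htr4 and carries them to the cell surface, averaged 9.17 CPM in 8 mice at 6 h and 11.1 CPM in 8 mice at 1 h, a log2 fold change of -0.28 (SE 0.114, adjusted p = 0.239, edgeR). Neither of the 2 tested genes among the other receptors, nor any of the 6 tested among the 9 genes of serotonin synthesis, transport and breakdown, was called in any comparison.

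Whether the receptors vary together from mouse to mouse was examined over pairs. Over the 16 libraries, centred on group means, the 45 pairs of receptors had a median Pearson r of 0.022, with 25 positive and 20 negative, and 0 pairs passed after adjustment. At an unadjusted permutation p under 0.05 there were 3 pairs, each with Htr2c. The 4 libraries low in Ttr were among the 16, and the pairs within the other 12 were not tested. Htr1a and Htr2c had the smallest p, with r = -0.592 (permutation p = 0.0172, adjusted p = 0.496) (Spearman's rho -0.624, permutation p = 0.0156, adjusted p = 0.535). The r was -0.625 without the 2 mice farthest from the median of Htr1a.

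Against the 10 other marker lists, over all 16 libraries, 0 of 100 relations passed after adjustment, and 10 had an unadjusted permutation p under 0.05. The 4 libraries low in Ttr, where Htr2c was lowest, were among the 16. These relations were not tested within the other 12. Htr1a had r = 0.722 with the interneuron markers (permutation p = 0.00177, adjusted p = 0.166). Its rho was 0.794 (permutation p = 0.00132, adjusted p = 0.132), and r without the 2 farthest mice was 0.650. With the CA1 pyramidal markers, r was -0.801 for Htr2c, -0.741 for Htr7 and 0.652 for Htr1a (adjusted p = 0.166 for each by permutation). The rho values were -0.738 for Htr2c, -0.768 for Htr7 and 0.621 for Htr1a. Without the 2 farthest mice r was -0.605 for Htr2c, -0.602 for Htr7 and 0.623 for Htr1a.

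By likeness of log-CPM over 16 libraries, each receptor's nearest gene was a different one, and Htr2c with Mest had the highest r of the 10. Htr1a was most like Actr3b with r = 0.947, Pip4k2b with r = 0.947 and Fam217b with r = 0.946. The genes nearest to Htr6 were Gm13889 with r = 0.932, Fbxl15 with r = 0.894 and Bmyc with r = 0.891. Htr2a was nearest to Atp8a2 with r = 0.914, Slc8a1 with r = 0.913 and Pak3 with r = 0.894, and Htr5a to 2700046A07Rik with r = 0.904, Cdc45 with r = 0.870 and Calr with r = 0.864. For Htr1b they were Pcdhb6 with r = 0.901, Sez6 with r = 0.844 and Oprd1 with r = 0.813. The remaining 4 receptors had no gene above 0.831, which was the r of Gpr165 with Htr7, followed by Esrrg with r = 0.794 and Vit with r = 0.782. Htr4 was nearest to Kbtbd6 with r = 0.830, then to Klf10, and then to Zmym1 with r = 0.820. Htr5b was nearest to Gm43231 with r = 0.798, Ndel1 with r = 0.781 and Ccn4 with r = 0.779, and Htr3a to Mall with r = 0.795, Kcng3 with r = 0.789 and Zfp382 with r = 0.782. All these genes were picked for the highest r among the genes tested. Without the 2 libraries farthest from the receptor's median, r was 0.638, 0.534 and 0.504 for Mall, Kcng3 and Zfp382, and 0.949 for Pip4k2b with Htr1a. Some had few reads, with means of 0.436 CPM for Gm43231, 0.543 for Kbtbd6, 0.644 for Mall and 0.750 for 2700046A07Rik.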

How the data were processed

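Hippocampal RNA of 16 mice was sequenced after mRNA library preparation. Each library is a separate animal, per the labels. The deposited raw table gives the authors' whole-number read counts for each Ensembl gene, not normalized. A second deposited table gives a normalized signal, the authors' counts times a factor per library, which differs by at most 0.000646% from reciprocal DESeq2 size factors. The build was GRCm38 and the tools included TopHat2 2.0.10 and HTSeq 0.6.1p1, per the submitters' processing notes. No source used here gives the strand setting or the annotation release.

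Of the 46603 IDs, 46005 had a symbol and 598 had none. The filter (filterByExpr, minimum count 10, minimum total 15) kept 17055 genes. Counts were tested in R 4.3.3 with edgeR 4.0.16 (TMM scaling, robust glmQLFit and glmQLFTest, 4 group means over 16 libraries, no covariate), adjusted by Benjamini-Hochberg over all genes tested, threshold 0.05. The common biological coefficient of variation was 0.0988, and the edgeR p-values set differences between groups against the spread between mice. CPM are TMM-scaled, log-CPM used a prior count of 2, and intervals are 95%. The code was tested on simulated data. Exon lengths, runs shared between receptors and sequences came from the GENCODE annotation and the GRCm38 genome. Correlations used 100000 permutations within groups.

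The 10 receptors, 3 pathway lists and 11 marker lists were chosen with earlier results of these data known. Named by rule were all 10 receptors, pathway genes called in a comparison, Tph2, Slc6a4, Maoa, Maob, S100a10, the other receptors, Ttr, the most abundant marker of each list and the 3 genes most like each receptor. Alternatives were RLE scaling, no low-count filter, a Wald test in DESeq2 1.42.0, a strict filter (mean of at least 1 CPM), limma-trend (limma 3.58.1) on log2 of the deposited signal plus 1, the groups compared alone, a covariate from choroid plexus markers and each mouse left out. After seeing the data, fits with a dentate granule score, fits without the 4 libraries low in Ttr, and lengths of the longest coding transcript were added.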

Additional observations from a re-analysis of the deposited data

How the results depend on the processing

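In every comparison fitted under the 25 alternatives 0 of 10 receptors were called (the fit to only the groups compared was made for 6 h and 1 h alone), with 0.0702 as the smallest adjusted p (Htr1a over both times, beta-sitosterol against vehicle). DESeq2 gave none of the 10 receptors an adjusted p at 6 h or at 1 h, so it could call none there. Over both times it gave no adjusted p to 4, and all these stay out of that count. No paired analysis was possible because each mouse has its own number. The order of levels was the same under RLE scaling.

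The number of all genes called moved. At 1 h it was 0, 40 with DESeq2 and 13 when the 4 low-Ttr libraries were dropped. At 6 h it was 0, and 110 with DESeq2. Over both times it was 13, and 117 with RLE scaling, 96 with no filter, 220 with the strict filter, 1283 with DESeq2, 103 with limma-trend, 408 with the choroid plexus score, 0 with the dentate score, and 0 when the 4 low-Ttr libraries were dropped. Leaving out 1 mouse gave 0 to 1206, the highest without vehicle 1 h mouse 5 and 0 without mouse 20, 11, 14, 7, 8 or 4. Between 6 h and 1 h it was 116, and 485 with DESeq2, 51 with the dentate score, 30 when the 4 low-Ttr libraries were dropped and 31 to 562 with 1 mouse left out, without beta-sitosterol 1 h mouse 7 and vehicle 1 h mouse 5. The cause was not tested.

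Of 420 receptor estimates under the other alternatives, 20 changed sign. The strict filter gave a log2 fold change of -0.0018 for Htr3a at 1 h and -0.0070 for Htr7 over both times. The choroid plexus score gave -0.0047 for Htr1b at 6 h, -0.047 for Htr1a and -0.013 for Htr2a in the difference of effects, and 0.12 for Htr2c between times. With the dentate score, values at 1 h were 0.38 for Htr2c, -0.026 for Htr4, -0.0053 for Htr6 and 0.064 for Htr7. At 6 h they were -0.013 for Htr1b and 0.037 for Htr2c. They were 0.21 for Htr2c over both times, -0.0023 for Htr1a in the difference of effects and 0.16 for Htr2c between times. Without the 4 libraries low in Ttr, values over both times were 0.077 for Htr5b, 0.049 for Htr6 and -0.020 for Htr7, and the difference of effects was -0.041 for Htr1a and 0.60 for Htr2c.

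With 1 mouse left out, 14 results had estimates of both signs. At 6 h the ranges were -0.058 to 0.079 for Htr1b, -0.020 to 0.081 for Htr5a and -0.029 to 0.14 for Htr7. At 1 h they were -0.052 to 0.059 for Htr3a, -0.039 to 0.095 for Htr4, -0.00011 to 0.21 for Htr6 and -0.13 to 0.044 for Htr7. Over both times they were -0.12 to 0.029 for Htr5b, -0.083 to 0.019 for Htr6 and -0.046 to 0.055 for Htr7. For the difference of effects they were -0.086 to 0.088 for Htr1a, -0.064 to 0.092 for Htr2a, -0.49 to 0.24 for Htr2c and -0.0022 to 0.17 for Htr7. The correlation of Htr2c with choroid plexus markers had r = 0.909 without centring, 0.897 with Ttr alone and 0.831 to 0.920 with 1 mouse left out.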
